A study of Mus musculus with 36 samples.

Results

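Drug and organic ion transporters were measured in mouse liver as 68 genes of the Slco, Slc22a and Abc families, out of 22916 genes tested. They were chosen by name alone, as the probes for Slco genes, Slc22a genes and Abc genes of subfamilies A, B, C, D and G. Abcb11, the bile salt export pump, was left out. In all, 86 such genes had 173 probes on the array. Probes that the scanner software marked as well above background on 6 or more of the 36 arrays were kept, 116 in all, and each gene was read by its brightest probe. The filter left out 18 genes, among them Slc22a2, Slco1a5 and Slc22a12, which were well above background on 0 arrays. Slc22a20 was just inside the filter with 6 arrays, and Abca14 and Abca16 were just outside it with 5. Of the 68 genes, 59 were well above background on all 36 arrays.

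The livers came from 36 male C57BL/6J mice of 11 weeks that had free access to chow, 1 array per mouse. In the knockout groups (labelled IRLKO), exon 4 of the insulin receptor gene Insr, flanked by loxP sites, was removed in hepatocytes by a tamoxifen-activated Cre recombinase under the transthyretin promoter. The control groups are labelled IRLWT. Each genotype was sampled 8, 12 and 16 h after lights-on (ZT8, ZT12 and ZT16), with lights off at 12 h, and each of the 6 groups held 6 mice. The time of tamoxifen treatment is not stated in the labels, nor is the presence of the Cre transgene in controls. Whole liver RNA was measured, and in bulk samples fewer cells of a type and less RNA per cell cannot be told apart.

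Hepatocytes take drugs, hormones and bile salts out of portal blood through uptake carriers on their sinusoidal side. Among these carriers are organic anion transporting polypeptides (Slco genes) and organic cation and anion transporters (Slc22a genes). ATP-binding cassette (Abc) pumps then move the compounds or their conjugates across the canalicular membrane into bile or back across the sinusoidal membrane into blood. Other Abc proteins carry sterols and phospholipids, or work in mitochondria, peroxisomes and lysosomes. In mice, several of these genes differ between male and female liver.

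Expression values are log2 signal minus the 75th percentile of the array, so that 0 is the 75th percentile, and ratios are fitted log2 differences of knockout minus control with wash batch in the model. Where 3 ratios of a gene follow each other, they are in the order ZT8, ZT12, ZT16. Where 3 levels are given for a group, they are its lowest, median and highest, with controls before knockouts. Levels of different genes are not compared, because each probe has its own brightness. The 75th percentile was 311 to 525 intensity units, 53.7% to 63.1% of spots were well above background, and 0 spots were saturated. Insr, the deleted gene, was lower in every knockout array (-3.95 to -2.94) than in any control array (-1.86 to -1.01), with 29.3%, 27.2% and 31.8% of the control signal left at ZT8, ZT12 and ZT16. The exon that its probe reads was not determined. The summed linear signal of 6 hepatocyte markers had a median of 3090 times the 75th percentile in controls and 2330 in knockouts at ZT8, 3220 and 2690 at ZT12, and 3240 and 2610 at ZT16. The ranges did not overlap at any time. Of the 6, 2 were called lower at ZT8, 3 lower and 1 higher (Tat) at ZT12, and 2 lower at ZT16, with median ratios of -0.17, -0.24 and -0.15. Ttr, whose promoter drives Cre, and Alb were called lower at all 3 times. The part of these levels in the ratios below was not tested. One array stood apart. In knockout ZT8 replicate 3, the level lay far from the other 5 arrays of its group for 5 of 33 genes searched, among them Abcb1a, Abcc6, Abcd3 and Slco1b2. Without it, 33, 38 and 41 of the 68 genes were called at ZT8, ZT12 and ZT16, against 32, 36 and 37 with all arrays.

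Transporter genes differed between the genotypes in both directions. A gene is called where the limma p-value, adjusted over all genes tested, was under 0.05. At ZT8, 18 of the 68 were called higher in knockouts (26.5%, against 16.7% of all genes) and 14 lower (20.6%, against 18.7%). At ZT12, 17 were higher (25.0%, against 19.6%) and 19 lower (27.9%, against 22.7%), and at ZT16, 17 were higher (25.0%, against 20% of all genes) and 20 lower (29.4%, against 20.1%). Groups without overlap, all 6 knockout arrays on one side of all 6 control arrays, were found for 20, 27 and 26 genes in time order, or 29.4%, 39.7% and 38.2%, against 15.5%, 21.4% and 19.2% of all genes. The median size of the ratio, without its sign, was 0.42, 0.41 and 0.53 at the 3 times, against 0.25, 0.29 and 0.28 over all genes.

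Of the 68 genes, 20 were called at no time (29.4%, against 39.6% of all genes), 14 at 1 time, 11 at 2 times and 23 at all 3. Called higher throughout were 12 genes (17.6%, against 8.91%), among them the basolateral efflux pumps Abcc3, Abcc4 and Abcc5, the sterol exporter Abcg1 and the uptake carrier Slco1a4. Called lower throughout were 11 (16.2%, against 10.6%), among them the uptake carriers Slco1a1, Slco1b2, Slco2b1, Slc22a3 and Slc22a7 and the canalicular pump Abcg2. These calls are those of the brightest probes, and for some genes, among them Slco2b1 and Abcc5, a dimmer probe differed, as given below. No gene was called with opposite signs at different times. Counts by role and of marker genes below stand against the shares of all genes at ZT8, ZT12 and ZT16. These were 16.7%, 19.6% and 20% higher, and 18.7%, 22.7% and 20.1% lower. The groups hold few genes, and whether their counts differ from these shares was not tested.

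**Figure D1:**
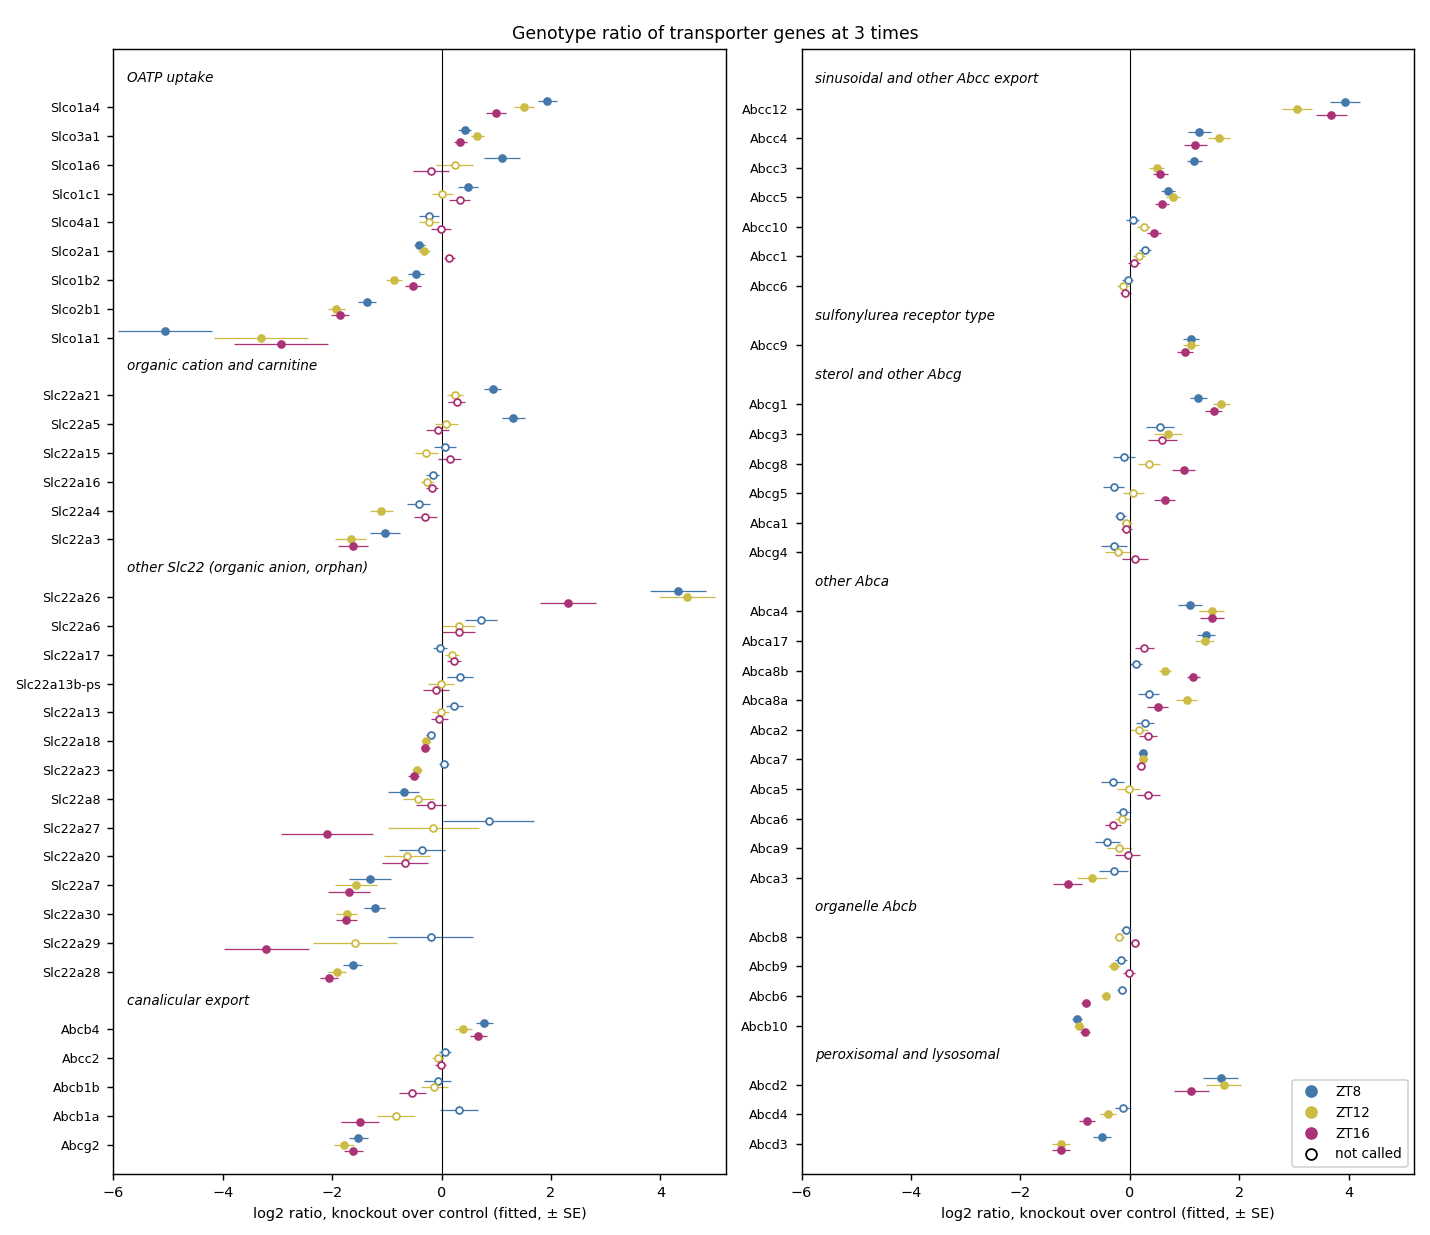
Fitted log2 ratio of knockout over control (horizontal axis) for transporter genes grouped by role, at ZT8 (blue), ZT12 (yellow) and ZT16 (purple). Bars are standard errors and open circles are ratios that were not called; Slco1a1 lies farthest to the left with -5.06 at ZT8 and Slc22a26 farthest to the right with 4.48 at ZT12.

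Among the 9 organic anion transporting polypeptides, 4 were called higher and 4 lower at ZT8, 2 and 4 at ZT12, and 2 and 3 at ZT16. Slco1a1, a carrier of bile salts and steroid conjugates that is known for high levels in male mouse liver, was lower at every time. Its lowest, median and highest values at ZT8 were 4.04, 4.41 and 4.59 in controls and -5.26, 0.65 and 2.42 in knockouts. Its probe lies at chr6:141857328-141857387 on the minus strand (mm9), as the scanner files give it. Knockout replicates 2 and 3 stood at -5.26 and -5.07, and the other 4 knockouts lay between 0.50 and 2.42. At ZT12 the values were 3.33, 4.00 and 4.41 in controls and -1.55, 0.84 and 2.50 in knockouts, and at ZT16 2.56, 3.8 and 4.17 and -0.74, 0.59 and 1.5. Every knockout array lay below every control array at all 3 times, while the knockout arrays differed widely among themselves. The ratios were -5.06 (SE 0.86, adjusted p 2.57e-05), -3.31 (adjusted p 0.00251) and -2.94 (adjusted p 0.00693), which left 2.99% of the control signal at ZT8 and 13.1% at ZT16. At ZT8, Slco1a1 was well above background on 5 of the 6 knockout arrays, so that the ratio there includes 1 array near background. The ZT8 ratio was -4.26 without knockout replicate 2 and -4.30 without replicate 3. Replicates 2 and 3 were the only knockout ZT8 arrays of wash batch 1. Within that batch the ZT8 ratio was -9.43, against -2.11 in batch 2 and -3.15 in batch 3. Whether the batch had a part in the 2 low values was not tested.

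Slco1a4, a close relative that also takes up bile salts, went the other way. At ZT8 it stood at 1.64, 1.91 and 2.36 in controls and 3.42, 3.87 and 4.37 in knockouts, at ZT12 at 1.55, 2.05 and 2.52 and 3.15, 3.61 and 3.93, and at ZT16 at 1.56, 2.28 and 2.59 and 2.91, 3.08 and 3.42. The groups did not overlap at any time. The signal was 3.81-fold, 2.84-fold and 1.99-fold that of controls (adjusted p 8.21e-10, 6.19e-08 and 4.99e-05), and the knockout level fell by 0.76 from ZT8 to ZT16 (adjusted p 0.00133). Slco1a6, of the same gene cluster, was called at ZT8 (ratio 1.1, adjusted p 0.0099), with ratios of 0.24 and -0.20 later that were not called.

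Slco1b2, the main carrier of statins and bilirubin conjugates in rodent liver, was called lower at all times. It stood at 7.69, 7.84 and 7.93 in controls and 6.43, 7.08 and 7.26 in knockouts at ZT12, without overlap. Its ratios were -0.47, -0.87 and -0.52 (adjusted p 0.011, 1.26e-05 and 0.00449), and the ZT8 ratio was -0.30 without knockout replicate 3 and not called when only the ZT8 groups were fitted (-0.46, adjusted p 0.0848). A second, dimmer Slco1b2 probe gave -1.43, -0.47 and -0.13, called at ZT8, and the mean of both probes was not called at ZT16 (-0.32, adjusted p 0.1).

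Slco2b1, a carrier of sulfated steroids and drugs, stood at 4.39, 4.62 and 4.98 in controls and 2.59, 3.44 and 3.96 in knockouts at ZT8, 4.37, 4.60 and 5.01 and 2.09, 2.69 and 3.03 at ZT12, and 4.54, 4.74 and 4.86 and 2.48, 2.75 and 3.19 at ZT16. No knockout array reached the control range. The ratios were -1.36, -1.93 and -1.86, with 26.3% of the control signal left at ZT12 (adjusted p 7.04e-11). The direction of Slco2b1 depends on its probe: a second, dimmer one gave 1.13, 1.29 and 0.95, called at all 3 times in the opposite direction. As a mean of both probes, Slco2b1 had ratios of -0.12, -0.32 and -0.45, called at ZT16 alone. Which transcripts the probes read was not determined.

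Slco2a1, the prostaglandin transporter, had ratios of -0.41, -0.33 and 0.14 and was called at ZT8 and ZT12 (adjusted p 0.00285 and 0.0128), but as a mean of its 3 probes the ratios were 0.08 and 0.11 there and were not called. Its direction depends on the probe. A dimmer probe was called higher at ZT8 (0.74), and another was called higher at ZT12 (0.3) and ZT16 (0.65). Slco3a1, a widely expressed member, was called higher at each time (0.42, 0.65 and 0.34). Slco1c1, a thyroxine carrier, was called at ZT8 alone (0.49), and the brightest probe of Slco4a1 was not called (-0.24, -0.23 and -0.01). Dimmer probes of Slco4a1 gave 0.84, 0.33 and 0.54, called higher at ZT8 and ZT16, and 0.75, 0.28 and 0.09, called higher at ZT8.

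Of the 7 organic cation and carnitine transporters, 2 were called higher and 2 lower at ZT8, 0 higher and 3 lower at ZT12, and 0 higher and 2 lower at ZT16. Slc22a3 (OCT3), a monoamine carrier, was lower at each time, with ratios of -1.04, -1.66 and -1.62 (adjusted p 0.00431, 1.85e-05 and 2.9e-05). Its groups overlapped at ZT8 and were apart later. Slc22a4, the ergothioneine transporter, was called lower at ZT12 alone (-1.11, adjusted p 9.95e-05), without overlap.

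The carnitine transporter Slc22a5 (OCTN2) was high in knockouts at ZT8. It stood there at 1.04, 1.40 and 1.64 in controls and 1.40, 2.83 and 3.62 in knockouts. The lowest knockout value was that of replicate 3, and the other 5 knockouts lay above all controls. At ZT12 the values were 1.18, 1.38 and 1.70 in controls and 1.32, 1.54 and 1.79 in knockouts, and at ZT16 1.07, 1.61 and 1.93 and 1.29, 1.43 and 1.77. The groups then overlapped, and the ratio went from 1.31 (2.48-fold, adjusted p 1.19e-05) to 0.09 and -0.07, neither called. Without knockout replicate 3, the ZT8 ratio was 1.59. The effect of genotype differed between times (moderated F test, adjusted p 0.00411), and within knockouts the level fell by 1.24 from ZT8 to ZT16 (adjusted p 3.27e-05). Slc22a21, a further carnitine carrier on chromosome 11, followed a similar course, at -2.64, -2.49 and -2.30 in controls and -2.12, -1.61 and -0.93 in knockouts at ZT8, without overlap. Its ratios were 0.93, 0.24 and 0.27, called at ZT8 alone (adjusted p 1.11e-05). The ZT8 ratio was 0.59 with the normexp background correction. Slc22a15 and Slc22a16 were not called, but 3 of the 4 dimmer probes of Slc22a15 were called lower at ZT8, the strongest at -1.41.

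The 14 remaining Slc22 genes, organic anion carriers and orphans, hold both the largest rise and some of the largest falls. Slc22a26 alone was called higher, at all 3 times, and 4, 5 and 7 were called lower at ZT8, ZT12 and ZT16. Of these genes, 5 are neighbours and relatives on chromosome 19, Slc22a26 to Slc22a30, whose promoter windows lie within 0.602 Mb on the minus strand (RefSeq, GRCm38.p6). Their sequences are shown because the 5 genes responded in 3 ways. Slc22a26 was higher, Slc22a28 and Slc22a30 were lower at each time, and Slc22a27 and Slc22a29 were called lower at ZT16 only. Each line gives the 250 bases before the start site, 5′ to 3′. Capitals mark the motifs found in the first pair, and in the last 3 the longest run they share, of 16 bases. The windows are chr19:7802668-7802917, chr19:7966028-7966277, chr19:8131983-8132232, chr19:8218901-8219150 and chr19:8405106-8405355, in the order shown.
Slc22a26: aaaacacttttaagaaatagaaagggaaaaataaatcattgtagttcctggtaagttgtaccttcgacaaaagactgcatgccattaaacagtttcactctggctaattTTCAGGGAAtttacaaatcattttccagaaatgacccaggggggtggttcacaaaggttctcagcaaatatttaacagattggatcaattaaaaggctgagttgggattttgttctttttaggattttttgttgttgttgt
Slc22a27: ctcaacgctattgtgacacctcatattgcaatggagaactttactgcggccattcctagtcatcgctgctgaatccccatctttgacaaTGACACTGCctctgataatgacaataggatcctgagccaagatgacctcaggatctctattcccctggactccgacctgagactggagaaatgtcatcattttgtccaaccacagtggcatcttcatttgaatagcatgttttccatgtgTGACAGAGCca
Slc22a28: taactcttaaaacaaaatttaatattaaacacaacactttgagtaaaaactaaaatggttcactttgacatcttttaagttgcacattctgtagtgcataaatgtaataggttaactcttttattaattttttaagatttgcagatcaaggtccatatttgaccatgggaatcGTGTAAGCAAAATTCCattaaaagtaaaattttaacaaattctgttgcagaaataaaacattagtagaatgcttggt
Slc22a29: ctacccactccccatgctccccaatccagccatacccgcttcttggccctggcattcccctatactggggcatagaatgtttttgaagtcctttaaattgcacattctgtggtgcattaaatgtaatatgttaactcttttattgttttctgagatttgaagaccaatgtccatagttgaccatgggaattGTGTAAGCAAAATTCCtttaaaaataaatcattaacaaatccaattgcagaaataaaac
Slc22a30: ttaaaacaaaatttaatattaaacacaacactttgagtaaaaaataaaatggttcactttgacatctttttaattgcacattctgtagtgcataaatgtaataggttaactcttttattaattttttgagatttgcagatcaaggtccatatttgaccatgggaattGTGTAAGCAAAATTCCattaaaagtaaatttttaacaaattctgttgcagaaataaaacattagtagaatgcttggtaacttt

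The windows of Slc22a28 and Slc22a30 were nearly alike, with 238 of 244 aligned bases identical (97.5%). Slc22a29 matched Slc22a28 at 146 of 168 aligned bases (86.9%) and Slc22a30 at 149 of 168 (88.7%). Slc22a26 aligned with Slc22a30 over 102 bases, of which 69 were identical, and Slc22a27 aligned with none of the others over more than 20 bases. The capitals in Slc22a26 are a TTCNNNGAA motif and those in Slc22a27 are TGACNNNGC motifs, which are described further on. Each gene was read by its own 60-base probe, and no pair of the 5 probes matched at more than 23 bases. Whether a probe also binds the transcript of a relative was not tested.

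Slc22a26, read by a probe at chr19:7856477-7856536 on the minus strand (mm9), stood at ZT8 at -3.52, -2.74 and -1.20 in controls and 1.09, 2.01 and 2.37 in knockouts, at ZT12 at -3.66, -1.91 and 0.95 and 1.79, 2.63 and 3.49, and at ZT16 at -0.79, -0.13 and 1.39 and 1.90, 2.32 and 2.66. The groups did not overlap. The ratios of 4.32, 4.48 and 2.31 correspond to 20-fold, 22.3-fold and 4.95-fold the control signal (adjusted p 7.94e-08, 3.1e-08 and 0.000576). Controls rose by 2.56 from ZT8 to ZT16 (adjusted p 0.00028), and the knockout change of 0.54 was not called. The difference between times did not pass the F test (adjusted p 0.0767). Its second probe gave 3.72, 4.05 and 2.07. Within the wash batches the ZT16 ratio ran from 0.62 to 2.99.

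Slc22a28 stood at 3.10, 3.44 and 3.58 in controls and 0.78, 2.03 and 2.14 in knockouts at ZT8, 2.98, 3.38 and 3.8 and 1.11, 1.58 and 1.76 at ZT12, and 2.93, 3.22 and 3.55 and 0.74, 1.14 and 1.46 at ZT16. Slc22a30 stood at 5.12, 5.71 and 5.98 and 3.48, 4.46 and 4.90 at ZT8, 5.08, 5.53 and 5.97 and 3.16, 3.95 and 4.35 at ZT12, and 5.24, 5.42 and 5.52 and 3.21, 3.77 and 4.03 at ZT16. Neither gene had overlapping groups at any time. The ratios of Slc22a28 were -1.62, -1.91 and -2.06 (adjusted p 9.66e-09, 3.44e-10 and 6.98e-11), and those of Slc22a30 were -1.23, -1.73 and -1.74 (adjusted p 7.65e-06, 1.8e-08 and 1.59e-08). All probes of both genes gave the same direction.

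Slc22a27 and Slc22a29 were scattered in both genotypes. At ZT8, Slc22a29 stood at -5.01, -4.26 and -2.24 in controls and -5.76, -4.20 and -1.52 in knockouts, and at ZT16 at -4.06, -3.51 and -2.02 and -7.43, -6.68 and -4.58, where the groups were apart. It was well above background on 4, 2 and 1 of the 6 knockout arrays at ZT8, ZT12 and ZT16, and on all control arrays. Its ZT16 ratio was -3.20 (adjusted p 0.00137), -0.82 with the normexp correction and -1.14 in the authors' deposited values, each also called. Slc22a27 at ZT16 stood at -2.98, -1.90 and 0.17 in controls and -4.38, -4.05 and -2.37 in knockouts, which overlapped. Its ratio of -2.09 (adjusted p 0.0454) was not called in 3 of 13 alternatives and was -1.18 with the normexp correction (adjusted p 0.0342). The call was lost when any of 10 of the 36 arrays was left out, with ratios down in size to -1.73 without ZT16 control replicate 6 (adjusted p 0.126).

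Slc22a7 (OAT2), a hepatic carrier of organic anions and nucleotides, stood at 3.91, 4.41 and 5.11 in controls and 2.04, 3.32 and 3.98 in knockouts at ZT8, 3.60, 4.46 and 4.88 and 1.54, 2.89 and 4.07 at ZT12, and 3.29, 4.28 and 4.44 and 1.82, 2.40 and 3.32 at ZT16. The highest knockout value lay above the lowest control value at each time, so that the groups overlapped. Its ratios were -1.32, -1.56 and -1.69, with 30.9% of the control signal left at ZT16 (adjusted p 0.000701). Slc22a23, an orphan carrier, was not called at ZT8 (0.05) and was lower at ZT12 and ZT16 (-0.45 and -0.51, adjusted p 0.000399 and 8.9e-05), without overlap at the later times (F test adjusted p 0.0122). Slc22a8 was called lower at ZT8 (-0.70) and Slc22a18 at ZT12 and ZT16 (-0.29 and -0.30). Slc22a6, Slc22a13, Slc22a13b-ps, Slc22a17 and Slc22a20 were not called.

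**Figure D2:**
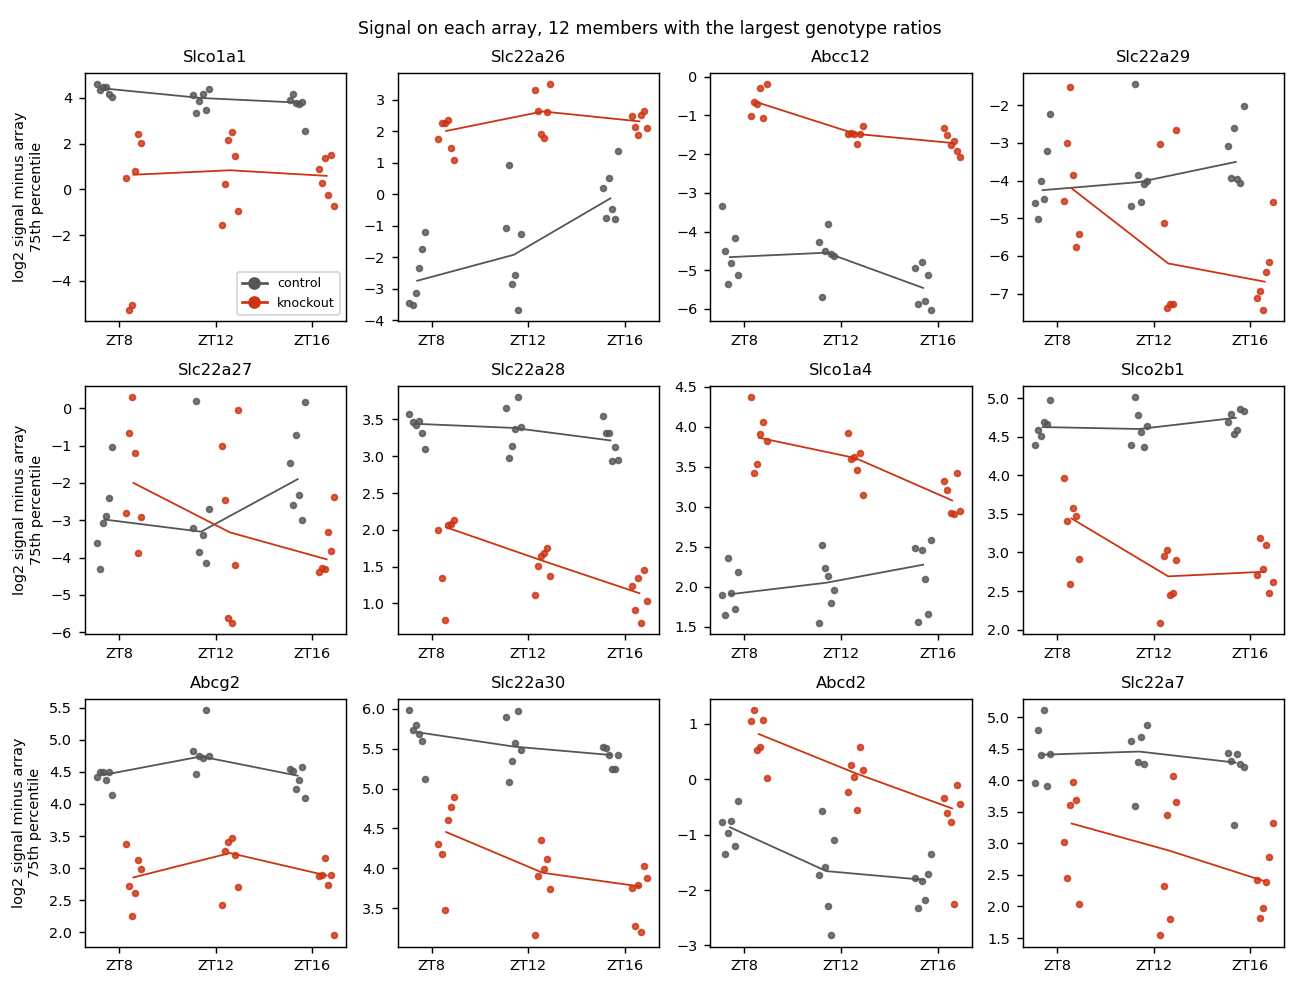
Log2 signal minus the array's 75th percentile (vertical axis) on each of 36 arrays for the 12 genes with the largest genotype ratios, by time, with controls in grey and knockouts in red and lines through the group medians. Slco1a1 is below the controls on every knockout array, and 2 knockout arrays at ZT8 lie at -5.26 and -5.07.

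The 5 canalicular exporters did not move as 1 group: 1 was called higher and 1 lower at ZT8 and at ZT12, and 1 higher and 2 lower at ZT16. Abcg2 (BCRP), which exports sulfate conjugates and urate, was lower throughout. It stood at 4.14, 4.46 and 4.49 in controls and 2.25, 2.86 and 3.38 in knockouts at ZT8, 4.47, 4.74 and 5.46 and 2.43, 3.23 and 3.47 at ZT12, and 4.09, 4.44 and 4.58 and 1.95, 2.88 and 3.16 at ZT16. The groups were apart at all times, and 34.8%, 29.1% and 32.7% of the control signal was left (adjusted p 8.04e-08, 3.47e-09 and 2.14e-08). Abcb4, which flips phosphatidylcholine into bile, was called higher with ratios of 0.78, 0.39 and 0.67 and overlapping groups. Its ZT12 call (adjusted p 0.0404) was lost in 3 alternatives and when any of 9 arrays was left out, with adjusted p up to 0.108. Abcc2 (MRP2), the exporter of bilirubin glucuronide, had ratios of 0.06, -0.07 and -0.02, none called, with standard errors of 0.11.

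Abcb1a, a P-glycoprotein gene, had a genotype ratio that changed over the times. It stood at -2.26, -1.46 and -0.68 in controls and -1.59, -1.38 and 0.35 in knockouts at ZT8, -1.06, -0.77 and 0.34 and -2.44, -1.76 and -0.01 at ZT12, and -1.47, -0.72 and -0.33 and -2.83, -2.26 and -1.72 at ZT16. The groups were apart at ZT16 alone. Its ratios were 0.31, -0.84 and -1.5, called at ZT16 (adjusted p 0.00101), and the ZT12 ratio (adjusted p 0.0534) was called in 7 of 14 alternatives. The F test adjusted p of 0.0453 stayed under the threshold with 12 of the 36 arrays left out singly. Abcb1b, the second P-glycoprotein gene, had ratios of -0.07, -0.13 and -0.54 that were not called.

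Among the 7 sinusoidal and other Abcc pumps, 4 were called higher at ZT8 and ZT12 and 5 at ZT16, and 0 were called lower. Of all genes, 16.7%, 19.6% and 20% were called higher at the 3 times, and 18.7%, 22.7% and 20.1% lower. Abcc3 (MRP3), which returns glucuronides to blood, stood at 4.60, 4.94 and 5.29 in controls and 5.79, 6.03 and 6.41 in knockouts at ZT8, 4.97, 5.15 and 5.39 and 5.42, 5.63 and 5.97 at ZT12, and 4.70, 5.23 and 5.60 and 5.51, 5.77 and 5.92 at ZT16. The groups were apart at ZT8 and ZT12, with 2.26-fold, 1.4-fold and 1.47-fold signals (adjusted p 6.94e-08, 0.00504 and 0.00182). Abcc4 (MRP4), which exports bile salts and cyclic nucleotides, stood at -2.36, -2.19 and -2.12 and -1.53, -1.07 and 0.34 at ZT8, -2.98, -2.39 and -1.86 and -1.57, -0.96 and 0.09 at ZT12, and -2.75, -2.54 and -2.31 and -1.58, -1.32 and -0.86 at ZT16, without overlap. Its signal was 2.41-fold, 3.1-fold and 2.29-fold that of controls (adjusted p 1.16e-05, 1.54e-07 and 2.34e-05), and with normexp the later ratios were 1.03 and 0.68, still called. Abcc5, a cyclic nucleotide pump, was higher by its brightest probe without overlap at each time (0.70, 0.79 and 0.58). The next brightest of its 5 probes gave 0.18, 0.05 and 0.07, none called, and each of the remaining probes was called higher at some time.

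Abcc12, an orphan pump, was called higher at each time. It stood at -5.35, -4.66 and -3.35 in controls and -1.06, -0.68 and -0.20 in knockouts at ZT8, -5.69, -4.54 and -3.8 and -1.75, -1.47 and -1.27 at ZT12, and -6.02, -5.45 and -4.79 and -2.07, -1.71 and -1.32 at ZT16. The groups were far apart, but Abcc12 was well above background on 4, 4 and 1 of the 6 control arrays, against all knockout arrays. Its ratios of 3.93, 3.06 and 3.68 (adjusted p 3.55e-12, 4.74e-10 and 8.45e-12) were 1.95, 1.30 and 1.29 with normexp and 2.57, 1.90 and 1.93 in the authors' deposited values, all called. Abcc6, whose loss causes ectopic mineralization, had ratios of -0.04, -0.12 and -0.08 and was not called. The brightest probe of Abcc1 was not called either, but a second, dimmer one gave 0.64, 0.55 and 0.67, called at each time. Abcc10 was called at ZT16 (0.44).

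Abcc9, a regulatory subunit of potassium channels that is prominent in vessel wall cells, was higher without overlap at each time (1.11, 1.13 and 1.0). Of 8 stellate and fibroblast markers, 0 were called at ZT8, and 3 higher and 1 lower at both later times, and of 6 endothelial markers, 0 were called at ZT8, 5 higher at ZT12 and 4 at ZT16. The summed level of the stellate and fibroblast markers was 47.4 to 65.9 times the 75th percentile in ZT8 controls and 42.1 to 106 in ZT8 knockouts, and 39.0 to 67.2 against 70.7 to 80.8 at ZT12, and 50.1 to 84.7 against 70.4 to 95.0 at ZT16. The endothelial sum was 27.7 to 34.4 and 26.4 to 36.9 at ZT8, 24.6 to 31.0 and 31.7 to 45.9 at ZT12, and 26.1 to 39.1 and 35.1 to 44.6 at ZT16. The markers were well above background on all 36 arrays, except Des on 30, and their part in the Abcc9 result was not tested.

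Of 6 genes grouped as sterol and other Abcg genes, among them Abca1, 1 was called at ZT8, 2 (Abcg1 and Abcg3) at ZT12 and 3 at ZT16, all higher. Abcg5 and Abcg8 together form the pump that exports cholesterol and plant sterols into bile, and they are transcribed away from each other. Their promoter windows are shown because they share 109 bases, chr17:84683012-84683120 (RefSeq, GRCm38.p6), which are in capitals, each on its own gene's strand. The windows are chr17:84682871-84683120 on the plus strand for Abcg8 and chr17:84683012-84683261 on the minus strand for Abcg5.
Abcg8: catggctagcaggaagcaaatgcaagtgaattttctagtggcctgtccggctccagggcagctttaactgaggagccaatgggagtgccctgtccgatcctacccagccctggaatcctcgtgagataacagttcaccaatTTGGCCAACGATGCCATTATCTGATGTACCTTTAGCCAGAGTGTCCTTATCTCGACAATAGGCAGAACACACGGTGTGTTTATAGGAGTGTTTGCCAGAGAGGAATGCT
Abcg5: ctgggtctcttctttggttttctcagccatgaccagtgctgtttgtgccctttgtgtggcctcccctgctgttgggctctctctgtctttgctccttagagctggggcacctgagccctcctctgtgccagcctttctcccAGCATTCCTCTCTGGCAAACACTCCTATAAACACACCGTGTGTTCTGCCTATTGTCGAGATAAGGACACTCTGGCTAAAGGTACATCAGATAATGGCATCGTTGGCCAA

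Abcg8 stood at 3.90, 3.97 and 4.02 in controls and 3.16, 3.91 and 4.36 in knockouts at ZT8, 3.07, 3.35 and 3.57 and 3.09, 3.77 and 4.33 at ZT12, and 2.52, 2.64 and 2.76 and 2.93, 3.57 and 4.49 at ZT16. Controls lay within a narrow band at each time and stepped down, while knockouts were spread and overlapped from time to time. Control levels fell by 1.34 from ZT8 to ZT16 (adjusted p 7.17e-06), and the knockout change of -0.25 was not called (adjusted p 0.409). The ratios of genotypes were -0.11, 0.35 and 0.98, called at ZT16 without overlap (adjusted p 0.000285). The ratio at ZT16 exceeded that at ZT8 by 1.09 (SE 0.29, adjusted p 0.0132), and the F test adjusted p was 0.0385. Abcg5 stood at 5.37, 5.55 and 5.72 and 4.88, 5.2 and 5.66 at ZT8, 5.04, 5.37 and 5.52 and 4.70, 5.2 and 6.23 at ZT12, and 4.40, 4.50 and 4.81 and 4.48, 5.12 and 5.79 at ZT16. Its controls fell by 1.0 (adjusted p 0.000193) and its knockouts changed by -0.07, which was not called. Its ratios were -0.29, 0.06 and 0.63, called at ZT16 (adjusted p 0.00929), and the F test was not passed (adjusted p 0.0697).

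Abcg1, which loads cholesterol onto lipoproteins and is known from macrophages, stood at 0.07, 0.10 and 0.22 in controls and 0.97, 1.22 and 2.07 in knockouts at ZT8, -0.14, -0.03 and 0.34 and 1.16, 1.67 and 2.14 at ZT12, and -0.14, 0.10 and 0.52 and 1.40, 1.70 and 1.84 at ZT16. The groups were apart, and the signal was 2.38-fold, 3.18-fold and 2.89-fold that of controls (adjusted p 2.62e-07, 9.92e-10 and 4.69e-09). Of 6 Kupffer cell markers, 1, 3 and 2 were called higher at the 3 times. Their summed level was 16.8 to 57.7 in controls and 28.5 to 188 in knockouts at ZT8, 13.3 to 51.7 and 37.9 to 111 at ZT12, and 18 to 91.1 and 43.6 to 196 at ZT16, and all 6 were well above background on all 36 arrays. Their part in the Abcg1 result was not tested. Abca1, the partner exporter that starts high-density lipoprotein formation, had ratios of -0.18, -0.06 and -0.06, none called. Abcg3 had ratios of 0.56, 0.70 and 0.60 and was called at ZT12 (adjusted p 0.0294), with overlapping groups, and Abcg4 had ratios of -0.30, -0.21 and 0.10, none called. A dimmer Abcg4 probe, well above background on 9 arrays, was called higher at ZT12 (0.92).

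Of the other 10 Abca genes, 3 were called higher at ZT8, 5 higher and 1 lower at ZT12, and 3 higher and 1 lower at ZT16. Abca8b, a membrane lipid transporter, stood at 2.72, 2.78 and 3.27 in controls and 2.71, 3.00 and 3.15 in knockouts at ZT8, 1.81, 2.14 and 2.29 and 2.52, 2.76 and 3.04 at ZT12, and 1.41, 1.67 and 1.83 and 2.52, 2.75 and 3.29 at ZT16. Controls fell by 1.22 from ZT8 to ZT16 (adjusted p 1.91e-09) and the knockout change of -0.16 was not called. The ratio went from 0.11 to 0.64 and 1.16, with the smallest F test p of the 68 genes (adjusted p 0.000318). Abca17 stood at -1.56, -1.43 and -0.95 and -0.17, 0.06 and 0.28 at ZT8, -1.42, -0.80 and -0.33 and -0.13, 0.51 and 0.93 at ZT12, and -1.16, -0.81 and -0.51 and -1.0, -0.68 and -0.03 at ZT16. Its ratio of 1.39 and 1.37 at the first times was 0.27 at ZT16, where the groups overlapped (F test adjusted p 0.00243). Abca4, known from the retina, was called higher throughout (1.1, 1.49 and 1.5), but was well above background on 3, 2 and 2 of the 6 control arrays at the 3 times, and a dimmer probe gave 0.64, 0.16 and -0.48, none called. Abca8a was higher at the later times (1.04 and 0.51), and Abca7 at the first 2 times (0.24 and 0.24). Abca3, known from surfactant storage in lung, was lower at the later times (-0.70 and -1.14). A dimmer Abca3 probe, well above background on 27 arrays, gave -0.33, -0.11 and 0.17, none called. Abca2, Abca5, Abca6 and Abca9 were not called, but a dimmer Abca6 probe was called lower at ZT16 (-0.36).

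Of the 5 Abcb genes of mitochondria and other organelles, 1, 3 and 2 were called lower at ZT8, ZT12 and ZT16, and 0 higher. Over all genes, 18.7%, 22.7% and 20.1% were called lower at these times, and 16.7%, 19.6% and 20% higher. Abcb10, a mitochondrial inner membrane protein linked to haem synthesis, was lower without overlap at each time (-0.97, -0.93 and -0.82). Abcb6, a porphyrin transporter, stood at 2.84, 3.00 and 3.08 in controls and 2.58, 2.77 and 3.14 in knockouts at ZT8, 3.00, 3.10 and 3.16 and 2.51, 2.66 and 2.79 at ZT12, and 2.83, 3.04 and 3.48 and 2.09, 2.35 and 2.37 at ZT16. The groups overlapped at ZT8 and were apart later, and the ratios were -0.15, -0.44 and -0.81 (F test adjusted p 0.00102). Abcb9 was called at ZT12 (-0.29), and Abcb8 was not called.

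Among the 4 peroxisomal and lysosomal genes, Abcd2 rose and the others fell where called. Abcd2, a peroxisomal carrier of very long and polyunsaturated acyl-CoA, stood at -1.35, -0.87 and -0.39 in controls and 0.01, 0.81 and 1.24 in knockouts at ZT8, -2.82, -1.66 and -0.58 and -0.55, 0.10 and 0.58 at ZT12, and -2.33, -1.81 and -1.36 and -2.26, -0.53 and -0.11 at ZT16. Only at ZT16 did the groups overlap, through 1 knockout array at -2.26. The signal was 3.16-fold, 3.28-fold and 2.18-fold that of controls (adjusted p 0.000146, 7.66e-05 and 0.00601). Abcd3, which imports branched acyl-CoA and bile acid precursors, stood at 7.0, 7.05 and 7.15 and 5.40, 6.65 and 7.20 at ZT8, 6.91, 7.06 and 7.34 and 5.53, 5.88 and 6.03 at ZT12, and 6.57, 6.79 and 6.89 and 5.26, 5.53 and 5.58 at ZT16. Its ratios were -0.51, -1.27 and -1.26, and the ZT8 ratio was -0.27 without knockout replicate 3 and not called with only the ZT8 groups fitted (adjusted p 0.151). Abcd4, linked to cobalamin, was called lower at ZT12 and ZT16 (-0.40 and -0.79).

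The genotype effect differed between the times for 12 of the 68 genes by the F test (17.6%, against 8.46% of all genes). For Slc22a5, Slc22a21, Abcc3, Slco1a4 and Abca17, the ratio was highest at ZT8 or ZT12 and smaller at ZT16. For Abcg8 and Abca8b, it rose towards ZT16. For Abcb1a, Abcb6, Abcd3 and Slc22a23, it became more negative, and for the brightest probe of Slco2a1 it went from -0.41 to 0.14. Of the 12, Abca17, Abca8b, Abcb6, Slc22a23 and Slc22a5 passed in all 9 alternatives fitted on the same probes and with any array left out.

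**Figure D3:**
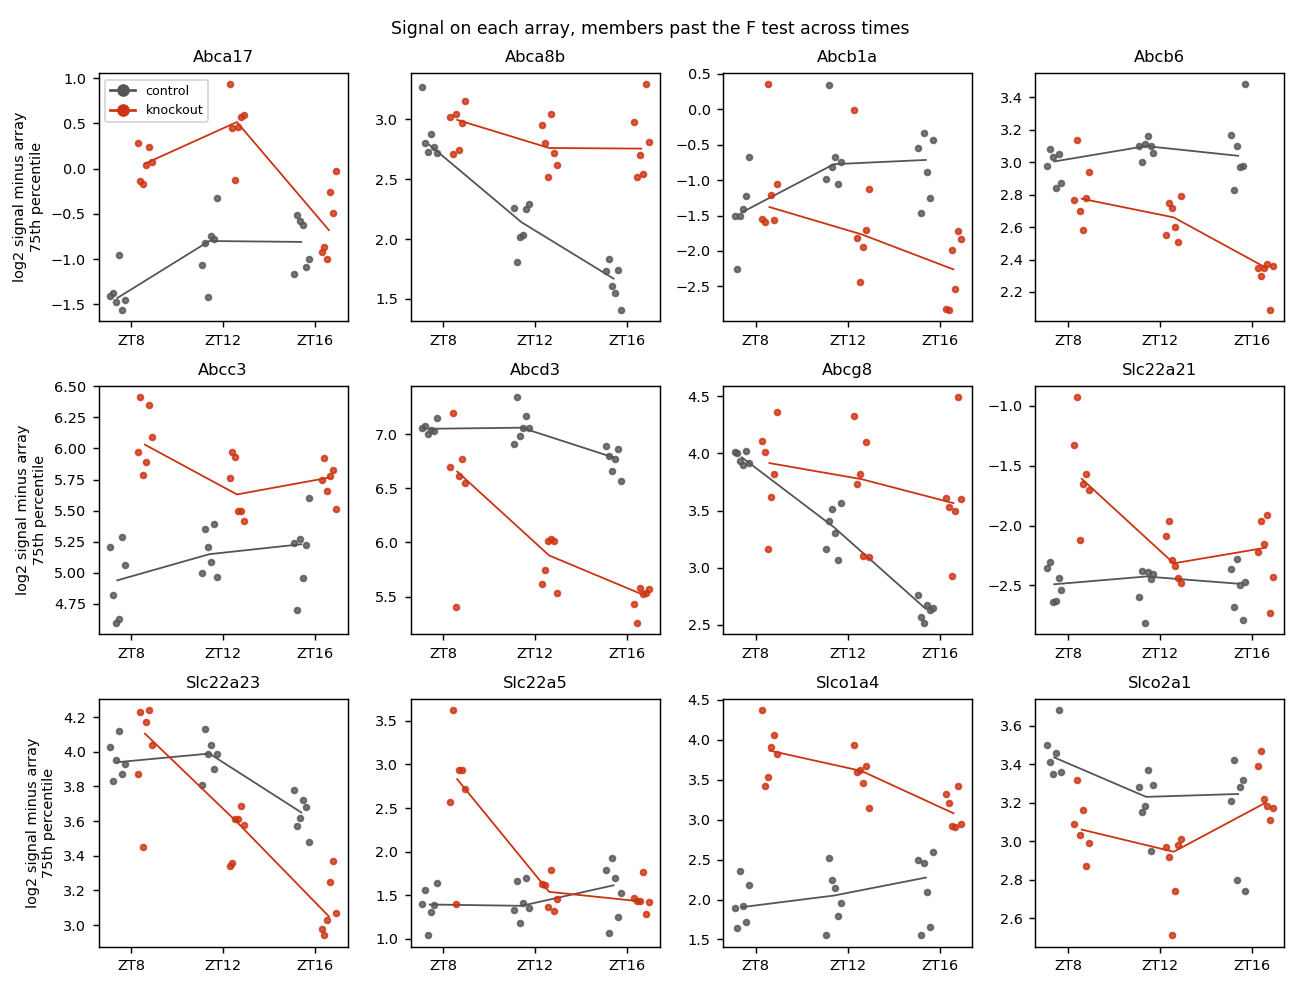
Log2 signal minus the array's 75th percentile (vertical axis) on each of 36 arrays for the 12 genes past the F test, by time, with controls in grey and knockouts in red and lines through the group medians. Control values of Abcg8 and Abca8b step down from ZT8 to ZT16, by 1.34 and 1.22, while the knockout medians go from 3.91 to 3.57 for Abcg8 and from 3.00 to 2.75 for Abca8b.

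Within controls, 19 of the 68 genes were called between ZT8 and ZT16 (27.9%, against 26.6% of all genes), 8 higher and 11 lower at ZT16. In the authors' deposited values the split was 5 higher and 12 lower. Within knockouts, 28 were called (41.2%, against 28.9% of all genes), 6 higher and 22 lower. Fitted on the groups compared alone, the order of these counts turned, with 27 called in controls (13 higher and 14 lower) and 17 in knockouts (2 higher and 15 lower). Abcc2 fell in both genotypes, by 0.47 in controls (adjusted p 0.00104) and by 0.56 in knockouts (adjusted p 0.000148), and so did Slco1b2, by 0.39 and 0.44. Slc22a28, Slc22a30, Slco2b1 and Slco1a4 were called lower at ZT16 in knockouts and not in controls. The F test was passed by Slco1a4 among these.

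Knockout arrays differed in Slco1a1 within each group, and some other transporter genes varied with it over the arrays. Deviations from the group mean were correlated between Slco1a1 and each of the other 67 genes over the 18 knockout arrays. Permutation p-values came from 100000 shuffles within groups, two-sided, and were adjusted over all 22915 other genes. In knockouts, 6 of the 67 relations passed (8.96%, against 2.64% of all genes), 3 positive and 3 negative, against 1.86% and 0.781% of all genes. The positive ones were Slc22a28 (Pearson r 0.90, permutation p 7e-05, Spearman rho 0.90, permutation p 3e-05, adjusted p 0.0172), Abca8a (r 0.88, permutation p 9e-05, rho 0.87, permutation p 0.0001, adjusted p 0.0184) and Slc22a30 (r 0.77, permutation p 0.00023, rho 0.78, permutation p 0.00055, adjusted p 0.0276). The negative ones were Abcc4 (r -0.81, permutation p 2e-05, rho -0.84, permutation p 5e-05, adjusted p 0.0102), Slc22a29 (r -0.80, permutation p 1e-05, the smallest these shuffles can give, rho -0.79, permutation p 0.00024, adjusted p 0.00739) and Slc22a27 (r -0.78, permutation p 1e-05, rho -0.84, permutation p 3e-05, adjusted p 0.00739). The values of Slc22a29 and Slc22a27 include knockout arrays on which they were not well above background.

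Left without the 2 arrays farthest from the median, knockout ZT8 replicates 2 and 3, these relations had r of 0.87 for Slc22a28, 0.79 for Abca8a, 0.75 for Slc22a30, -0.85 for Abcc4, -0.83 for Slc22a29 and -0.82 for Slc22a27. Within the 3 wash batches, of 6 knockout arrays each, r was 0.73 to 0.89 for Slc22a28, 0.67 to 0.94 for Abca8a, 0.66 to 0.83 for Slc22a30, -0.86 to -0.67 for Abcc4, -0.80 to -0.67 for Slc22a29 and -0.83 to -0.71 for Slc22a27. All 6 relations kept their sign within each batch. In the 18 control arrays, 0 of the 67 relations and 0 of all 22915 passed the same permutation test. The adjusted permutation p was 0.239 or more for the transporter genes there. An unadjusted permutation p under 0.05 was found for 10 of the 67 in controls and 17 in knockouts. Over all 22915 genes it was found for 2221 in controls and 4034 in knockouts. The difference between genotypes was not tested.

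**Figure D4:**
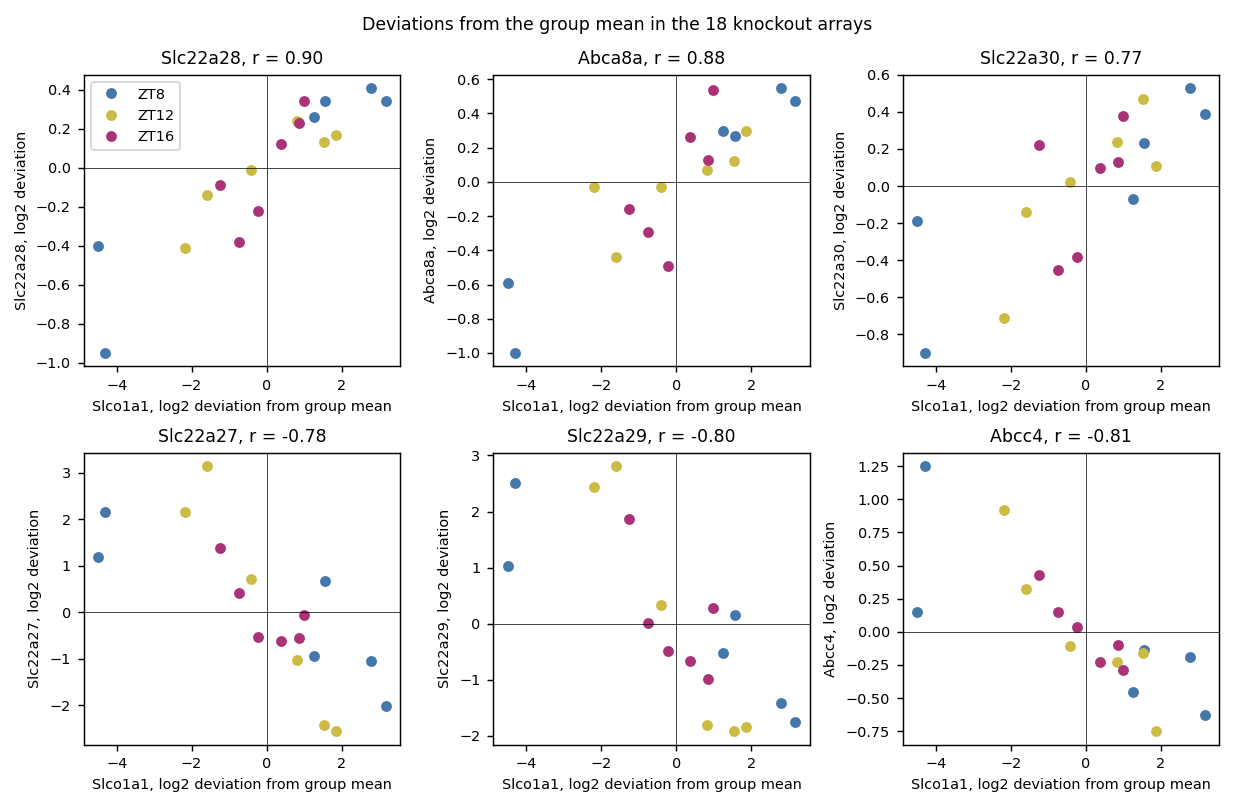
Deviation of Slco1a1 from its group mean (horizontal axis, log2) against that of 6 other genes (vertical axes, log2) on the 18 knockout arrays, coloured by time. Slc22a28, Abca8a and Slc22a30 run with Slco1a1 (r 0.90, 0.88 and 0.77), and Slc22a27, Slc22a29 and Abcc4 run against it (r -0.78, -0.80 and -0.81).

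Genes known to differ between male and female liver were measured beside these. Of 6 male-biased genes, 5, 4 and 4 were called lower in knockouts at ZT8, ZT12 and ZT16, with ratios of -9.81, -8.77 and -7.23 for the steroid dehydrogenase gene Hsd3b5. Of 5 female-biased genes, 5, 4 and 1 were called higher at the same times. The summed signal of the male-biased genes was 593 to 1000 times the 75th percentile in ZT8 controls and 41.9 to 606 in ZT8 knockouts, 523 to 977 and 158 to 643 at ZT12, and 608 to 859 and 235 to 497 at ZT16. That of the female-biased genes was 279 to 365 in ZT8 controls and 344 to 479 in ZT8 knockouts, 298 to 427 and 322 to 504 at ZT12, and 301 to 453 and 358 to 470 at ZT16. The part of this shift in the transporter results was not tested.

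Of 13 further transporters and scaffold proteins measured, 2 were called higher and 4 lower at ZT8, 2 and 5 at ZT12, and 3 and 5 at ZT16. The sodium-driven bile salt carrier Slc10a1 had ratios of 0.02, -0.10 and -0.05, none called, and Abcb11 had -0.15, -0.19 and 0.41, called at ZT16 (adjusted p 0.00617). Slc51b, a subunit of the sinusoidal bile salt exporter, was higher at each time (2.16, 1.35 and 1.78), as was the nucleoside carrier Slc29a2 (1.17, 0.78 and 0.55). The scaffolds Pdzk1 (-0.35, -0.71 and -0.87) and Slc9a3r1 (-0.26, -0.68 and -0.77), which hold transporters at the membrane, were lower at each time, and so was the canalicular flippase Atp8b1 (-0.66, -0.46 and -0.54). Of 14 transcription factors that control transporter genes, 1 was called higher and 4 lower at ZT8, 3 and 5 at ZT12, and 2 and 4 at ZT16. The bile acid receptor Nr1h4 (FXR) was lower at each time (-0.53, -1.21 and -1.42), and the xenobiotic receptor Nr1i2 (PXR) went from 0.47 at ZT8, called higher, to -0.71 at ZT16, called lower (F test adjusted p 0.000651).

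Promoter windows of 250 bases before the start site were at hand in RefSeq (GRCm38.p6) for 52 of the 68 genes. They were searched on both strands for 4 motifs. The E-box CACGTG was found in 5 of the 52 (9.62%, against 6.05% of 27025 promoters of the same length), in Abca1, Abca8a, Abcc4, Slc22a4 and Slc22a16. The FoxO motif GTAAACA was found in 1 (1.92%, against 3.09%), Abcb1a. The antioxidant response motif TGACNNNGC was found in 5 of the 52, and in 2743 of the 27025, among them Slc22a27, Abcc2 and Abcc4. The STAT motif TTCNNNGAA was found in 5 (9.62%, against 7.18%), among them Slc22a26 and Slco1b2. No match overlapped a match of another motif. None of the 4 was found in the windows of Slco1a1, Slco1a4, Slc22a28, Slc22a29, Slc22a30, Abcg5 or Abcg8, which says only that these letters are not in those 250 bases.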

How the data were processed

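Liver RNA of 36 mice was hybridised to 1-colour Agilent SurePrint G3 Mouse GE v2 arrays, 200 ng each, per the labels' protocols. Spot intensity values were deposited as scanner output of Feature Extraction 10.10.1.1, per the file headers, background subtracted but not normalized between arrays, and the spot flags deposited with them are other values of 0 or 1. The authors' deposited table of log2 values was used as an alternative. How it was normalized is not given in the sources used here. Probe positions in the files are on mm9.

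Processed signals were log2 transformed and centred on the 75th percentile of their array. Outlier spots were left out, probes well above background on at least 6 arrays were kept (34769; another 91 with a missing value were left out, which was chosen after seeing the data), and the brightest probe stood for a gene. Limma 3.58.1 in R 4.3.3 was fitted to all 36 arrays with 6 group means and 3 wash batches (11, 12 and 13 arrays, each with all 6 groups). P-values were adjusted by Benjamini-Hochberg over 22916 genes, threshold 0.05. The fit was tested on simulated data. Mice are separate samples per the labels, and arrays give no counts, so that their number limits the precision.

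Named were the 12 genes with the largest called ratios, all 12 past the F test, and 20 fixed genes, 33 in all. The genes, lists and tests were chosen with earlier results of these data known, and the correlations with Slco1a1 were added after seeing the values. The alternatives were 14 settings and each array left out. A few genes are counted in these totals and are not reported here by name.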

Additional observations from a re-analysis of the deposited data

Results flagged for a closer look

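Among the 33 genes searched in 6 groups each, 22 of 198 groups held an array whose level lay far from the other 5. Chance gives this in about 1 in 20 groups, or 9.9 of 198. Knockout ZT8 replicate 3 accounted for 5 of the 22, and knockout ZT16 replicate 6 and control ZT12 replicate 2 for 3 each. Levels are log2 signal minus the array's 75th percentile, and the range of the other 5 arrays follows each level.

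In knockout ZT8 replicate 3, the level stood apart for Abcb1a at 0.35 (others -1.59 to -1.05), Abcc6 at 3.87 (others 4.68 to 4.93), Abcd3 at 5.40 (others 6.55 to 7.20) and Slco1b2 at 6.57 (others 7.45 to 7.83). In knockout ZT16 replicate 6, the level stood apart for Abcb4 at 5.60 (others 6.15 to 6.45), Abcg2 at 1.95 (others 2.74 to 3.16) and Slco1b2 at 6.40 (others 7.10 to 7.20). In control ZT12 replicate 2, the level stood apart for Abcb1a at 0.34 (others -1.06 to -0.68), Slc22a27 at 0.18 (others -4.14 to -2.71) and Slc22a29 at -1.45 (others -4.68 to -3.86).

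The array of control ZT8 replicate 4 had Abca17 at -0.95 (others -1.56 to -1.37). For control ZT8 replicate 1, it was so for Abca8b at 3.27 (others 2.72 to 2.88) and Abcc6 at 4.83 (others 4.65 to 4.69). The array of control ZT12 replicate 5 had Abcb1b at -3.0 (others -2.56 to -2.30) and Abcg2 at 5.46 (others 4.47 to 4.83). For knockout ZT16 replicate 5, it was so for Abcb6 at 2.09 (others 2.30 to 2.37). The array of knockout ZT16 replicate 4 had Abcd2 at -2.26 (others -0.77 to -0.11). For control ZT12 replicate 1, it was so for Abcg1 at 0.34 (others -0.14 to 0.04). The array of control ZT8 replicate 6 had Abcg2 at 4.14 (others 4.37 to 4.49). For control ZT16 replicate 3, it was so for Slc22a7 at 3.29 (others 4.21 to 4.44). The array of control ZT16 replicate 6 had Slco1a1 at 2.56 (others 3.72 to 4.17).

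For 12 genes the genotype effect differed between times by limma's F test across all genes, and the ratio at ZT16 minus that at ZT8 is given on the log2 scale. It was above 0 for Abca8b with 1.05 (SE 0.16, adjusted p 7.8e-05), Abcg8 with 1.09 (SE 0.29, adjusted p 0.0132) and Slco2a1 with 0.55 (SE 0.15, adjusted p 0.0151). It was below 0 for Abca17 with -1.12 (SE 0.24, adjusted p 0.00252), Abcb1a with -1.81 (SE 0.50, adjusted p 0.0164), Abcb6 with -0.66 (SE 0.11, adjusted p 0.000296), Abcc3 with -0.62 (SE 0.20, adjusted p 0.0384) and Abcd3 with -0.75 (SE 0.23, adjusted p 0.0338), and also for Slc22a21 with -0.66 (SE 0.21, adjusted p 0.0435), Slc22a23 with -0.56 (SE 0.14, adjusted p 0.00731), Slc22a5 with -1.38 (SE 0.30, adjusted p 0.00258) and Slco1a4 with -0.94 (SE 0.25, adjusted p 0.0145). Each adjusted p is from the limma contrast.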

How the results depend on the processing

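With 14 alternatives for 99 named ratios, 1342 of 1374 values kept their side of the threshold, 14 lost the call, 16 gained it and 2 reversed. A change of sign was counted as reversed only where the main or the alternative ratio was called. Ratios called in neither could change sign, as that of Slc22a27 at ZT12 did (-0.53 to 0.23). The reversed values were those of Slco2a1 as a mean of all its probes, 0.08 at ZT8 and 0.11 at ZT12, where its dimmer probes differ from the brightest. Of 3564 ratios with 1 array left out, 3531 kept their side, 20 lost the call, 13 gained it and 0 reversed by the same rule. Here too, uncalled ratios could change sign, such as Slc22a27 at ZT12 (-0.82 to 0.5). Of 68 called ratios, 58 were called under every alternative run and with any array left out. The 12 genes past the F test became 5 without a filter on dim probes, 7 with the mean of all probes and 7 with slide as a fixed block, and 6 to 14 with 1 array left out. The 28 genes called between ZT8 and ZT16 in knockouts became 17 with only the groups compared, while the 19 in controls became 27, and 23 to 31 with 1 array left out. Counts of genotype calls with 1 array left out were 28 to 33 at ZT8, 31 to 38 at ZT12 and 35 to 41 at ZT16, and those between ZT8 and ZT16 in controls 13 to 22. The cause of the other changes was not tested.

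With the replicate number as a block, 31, 36 and 37 genes were called at ZT8, ZT12 and ZT16 and 10 passed the F test. The numbers did not pair the samples: over 90 same-number pairs the median correlation was 0.02 (-0.50 to 0.23). Signal near background limits Abcc12 and Abca4 in controls, Slc22a29 in knockouts and Slco1a1 on 1 knockout array at ZT8. The ratios of Abcc12, Slc22a29 and, at ZT16, Slc22a27 varied with the background correction.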
